A study of Mus musculus with 18 samples.

Results

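Transcript levels of 10 genes of the endoplasmic reticulum (ER) stress response and of secretory capacity were followed in mouse colorectal tissue and tumor organoids: Hspa5, Xbp1, Ern1, Ern2, Creb3l1, Atf4, Ddit3, Pdia4, Hyou1 and Herpud1. They were taken by symbol, whatever their level, from 36757 gene entries, each matched 1 entry, and all 10 were tested in every comparison. The libraries were RNA-seq of 18 samples in 6 groups of 3, made from C57BL/6 mice that entered the models at 6 to 8 weeks of age. In the colitis model, mice drank 2% dextran sulfate sodium (DSS, a colon irritant) for 7 days followed by 14 days of water, in repeated cycles, and were killed 4 weeks after the last DSS. In the colitis-associated cancer (CAC) model, an intraperitoneal injection of 10 mg/kg azoxymethane (AOM, a colon carcinogen) came 4 days before the first of such DSS cycles. The organoids were grown in Matrigel from pieces of CAC tumors, so their libraries are of cultured cells and carry the same AOM and DSS history. In each model, libraries labelled WT (RNF138 fl/fl in the treatment text) were set against libraries labelled RNF138-/-. RNF138 is a ubiquitin ligase. Which Cre line or cell type the deletion was driven in, how many animals stand behind each library and which exons were removed are not given in the sources used here.

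Secretory cells fold and modify proteins in the ER. When unfolded proteins build up, sensors in the ER membrane start the unfolded protein response: the kinase and endonuclease IRE1 (Ern1 everywhere, Ern2 mainly in gut and airway epithelium, goblet cells above all) removes a short stretch from the Xbp1 mRNA, PERK phosphorylates eIF2 so that translation of Atf4 rises, and ATF6 is cleaved into a transcription factor. XBP1 and ATF6 raise chaperones and ER-associated degradation (ERAD), ATF4 raises amino acid genes and Ddit3, which encodes CHOP, and CREB3L1 (OASIS) is a related membrane-bound factor of collagen-secreting and goblet cells. In the colon the main professional secretors are goblet cells, which make mucin, and plasma cells, which make immunoglobulin A.

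The bases that IRE1 removes are shown because a count per gene cannot see them. In the transcript Xbp1-201 of the GENCODE annotation (GRCm38, the build of the files) they lie in exon 4 of 5, in coding sequence, at chr11:5524279-5524304 on the plus strand, and are the only 26-base stretch of that transcript bounded by a pair of CNGCAGC loops. Capitals mark the 26 removed bases in the line that follows, printed 5′ to 3′ with 20 bases on each side.
Xbp1-201 around the IRE1 sites: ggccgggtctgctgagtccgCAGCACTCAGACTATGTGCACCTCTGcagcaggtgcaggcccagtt
A read from either form counts for Xbp1, so the Xbp1 values below are the sum of unspliced and spliced mRNA.

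Upstream sequence from RefSeq (GRCm38.p6) was at hand for 7 of the 10 genes; Ern2, Creb3l1 and Hyou1 were not in that table. In the 250 bases before the start site, on either strand, the ER stress response element (ERSE: CCAAT and CCACG with 9 bases between them) was found in 1 of the 7, Hspa5, starting 65 bases before the start, and in 0.113% of 32851 promoters. The ERSE-II element (ATTGG and CCACG with 1 base between them) was found in Herpud1 alone of the 7, starting 52 bases before the start, and in 0.0304% of promoters. An amino acid response element core (TGATGNAA), the kind that ATF4 binds, stood in Herpud1 on the minus strand, from 112 bases before the start, and in 3.45% of promoters, and the core TGACGTGG of the unfolded protein response element stood in none of the 7 and in 0.563% of promoters. The 120 bases before the RefSeq start are printed for both genes with the matches in capitals. For Hspa5 the window is chr2:34771970-34772089 on the plus strand, and GENCODE places the gene's first base at the window's first base. For Herpud1 it is chr8:94386309-94386428 on the plus strand.
Hspa5: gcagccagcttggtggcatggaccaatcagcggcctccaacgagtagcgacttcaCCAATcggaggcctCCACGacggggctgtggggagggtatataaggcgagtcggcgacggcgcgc
Herpud1: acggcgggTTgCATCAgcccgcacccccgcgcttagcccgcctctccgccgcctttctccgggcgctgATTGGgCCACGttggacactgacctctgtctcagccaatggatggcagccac

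The libraries held 11514716 to 24390082 counted reads, and the members drew 17 to 66438 reads each per library, the lowest in Ern2 of the organoids. Values are CPM (counts for every 1000000 reads counted) after TMM scaling over all 18 libraries, as mean ± SD with n = 3. No library labelled RNF138-/- fell below the WT range of Rnf138 in its model. In colitis Rnf138 stood at 15.6 to 25.1 CPM in WT and 17.99 to 19.4 in the libraries labelled RNF138-/- (means 19.6 and 18.8). The ranges were 21.5 to 27.6 and 39.7 to 45.8 in CAC (means 25.4 and 43.6). In the organoids they were 37.7 to 55.7 and 42.8 to 50.3 (means 48.9 and 46.9). The 3 WT organoid libraries had 0 CPM of the Y-linked Ddx3y and 391 to 464 CPM of Xist, and those labelled RNF138-/- had 150.4 to 185 CPM of Ddx3y and at most 0.16 of Xist, so genotype and sex cannot be told apart in the organoids. All other libraries showed the male pattern. CAC WT library 3 lay nearest the colitis libraries in a principal component analysis, and colitis library 3 labelled RNF138-/- held less goblet marker RNA than its fellows (12159 CPM summed over 13 markers, against 33617 and 41451).

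In colitis none of the 10 genes passed at an adjusted p under 0.05 (edgeR quasi-likelihood test), where 0.0902% of 16623 genes did. DESeq2 also passed 0 of 10, where it passed 1.91% of 19663 genes, and at an unadjusted p under 0.05 the test picked 3 of 10, against 10.4% of all genes. Those 3 were the 2 IRE1 genes and Creb3l1, all lower in the libraries labelled RNF138-/-. Their 3 libraries did not overlap with WT in these genes or in Pdia4, 4 of 10 in all, against 16.2% of all genes.

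Ern1, the IRE1 found in all cells, read 72.8, 68.0 and 77.4 CPM in WT colitis and 38.1, 49.2 and 54.0 in libraries labelled RNF138-/-. Every WT library was above every other, and the log2 fold change was -0.63 ± 0.19 (SE), with an adjusted p of 0.292. Ern2, the epithelial IRE1, read 151, 159 and 103 CPM in WT and 45.8, 101 and 54.2 in the libraries labelled RNF138-/-. The lowest WT library and the highest of the other group were nearly level, and the log2 fold change was -1.04 ± 0.33 with an adjusted p of 0.313. Creb3l1 read 342, 312 and 262 CPM against 127, 228 and 78.4. Its log2 fold change was -1.08 ± 0.36 with an adjusted p of 0.347, and the lowest of its values came from the library with little goblet marker RNA. Libraries 1 and 2 labelled RNF138-/- held more goblet marker RNA (33617 and 41451 CPM) than any WT library (25297 to 26634). The part of these markers in the Creb3l1 values was not tested. Pdia4, a protein disulfide isomerase, stood at 184 ± 22.2 CPM in WT and 139 ± 16.0 (adjusted p = 0.48).

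The other 6 genes overlapped between the genotypes in colitis. Hspa5, which encodes the master ER chaperone BiP, stood at 867 ± 119.5 CPM in WT and 776 ± 194 in the libraries labelled RNF138-/-, and its 95% interval of the log2 difference ran from -0.72 to 0.39. Xbp1 stood at 349 ± 19.1 and 298 ± 56.1 CPM, Atf4 at 157 ± 10.4 and 184 ± 37.5, and Ddit3 at 21.2 ± 3.60 and 29.0 ± 14.2. The Ddit3 values of the libraries labelled RNF138-/- were 44.4, 26.2 and 16.3 CPM, wider apart than the genotypes. Hyou1, a large BiP-like chaperone, and Herpud1, a membrane protein of the ERAD complex, differed by -0.21 ± 0.26 and -0.19 ± 0.18 on the log2 scale. The median over the 10 members was -0.22, beside 0.02 over all genes.

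**Figure D1:**
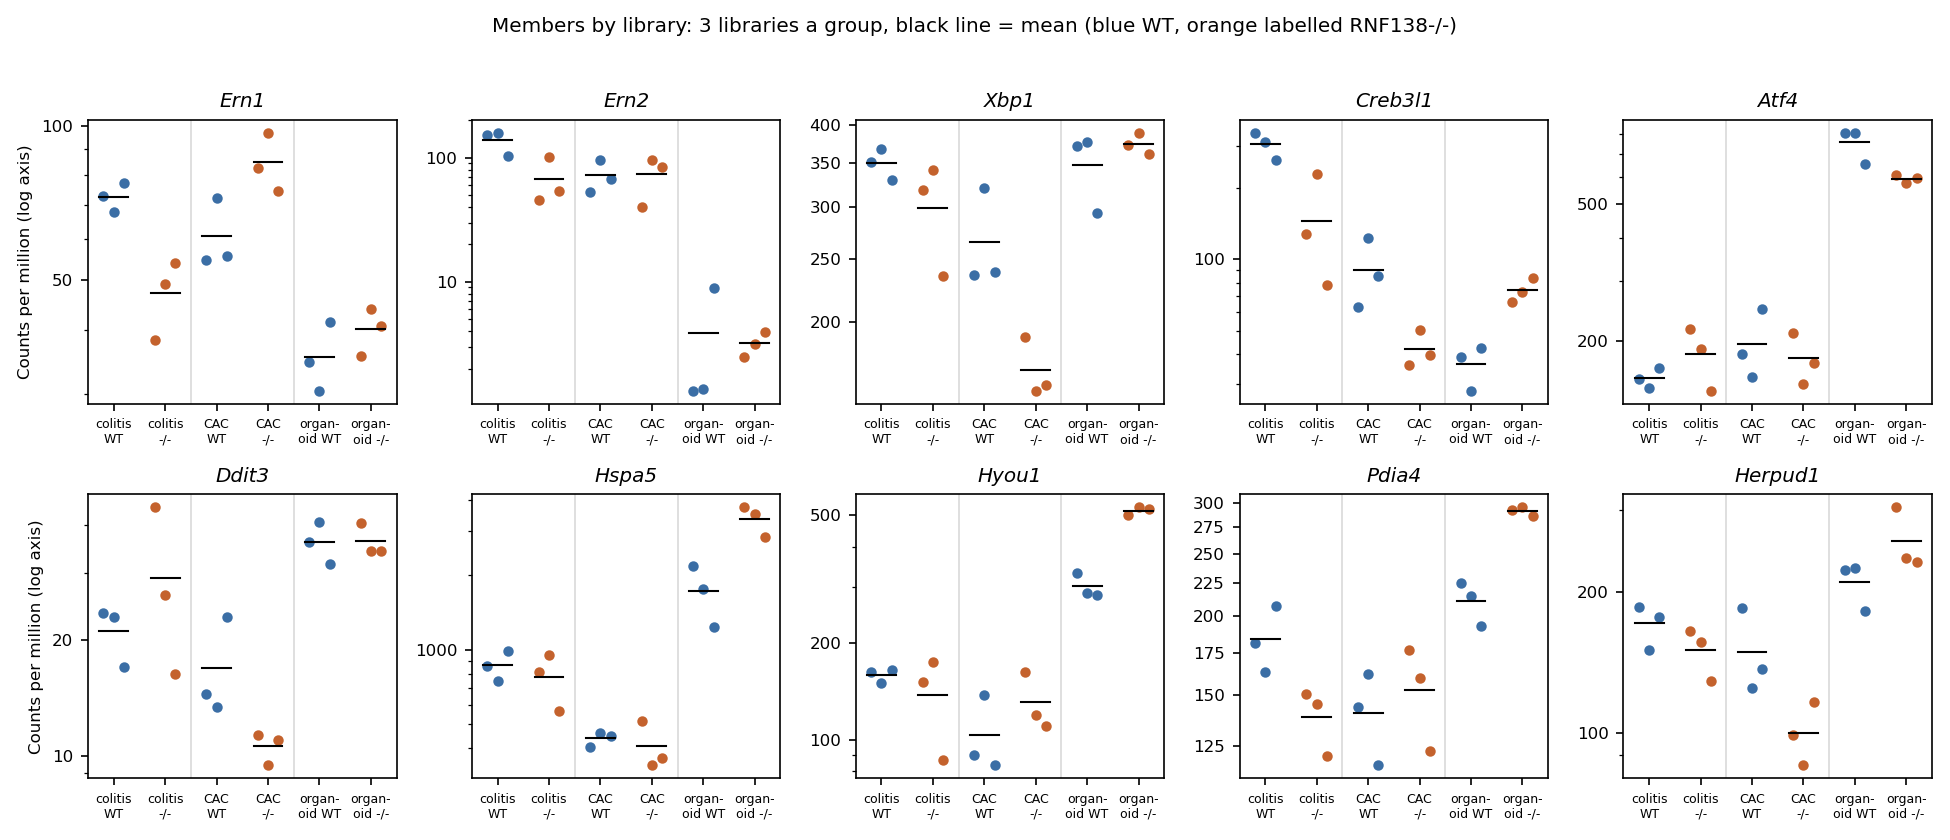
CPM (log axis, a separate scale in each panel) of the 10 genes in the 18 libraries: 3 points a group, a black line at the mean, blue for WT and orange for libraries labelled RNF138-/-. Hspa5, Hyou1 and Atf4 were highest in the organoids, and Ern2 fell there to between 1.33 and 8.84.

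In CAC none of the 10 genes passed either, against 6.38% of 17752 genes (1.05% higher and 5.33% lower in libraries labelled RNF138-/-). DESeq2 passed 2 of 10, Xbp1 and Creb3l1, a share near the 18.8% of 21048 genes that it passed. An unadjusted p under 0.05 was found for 5 of 10, against 33.8% of all genes. The 3 libraries of each genotype did not overlap in 5 genes, 4 lower and 1 higher in libraries labelled RNF138-/-, against 44.1% of all genes. In a fit of all 18 libraries together 4 of the 10 passed, against 23.5% of 19390 genes: Xbp1, Creb3l1 and Herpud1 lower (14.2% of genes were) and Ern1 higher (9.27% were).

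Creb3l1 read 63.4, 123 and 85.6 CPM in WT CAC and 36.1, 50.7 and 39.7 in libraries labelled RNF138-/-. All 3 of the latter were below all 3 WT libraries, with a log2 fold change of -1.16 ± 0.27 and an adjusted p of 0.0528. It passed in 5 of 13 alternatives: with the replicate block (adjusted p = 0.0316), without the low-count filter (adjusted p = 0.0377), with thinned counts (adjusted p = 0.048), with DESeq2 (adjusted p = 0.00434) and in the fit of all 18 libraries (adjusted p = 0.0194). Xbp1 read 236, 320 and 238 CPM in WT and 189.7, 157 and 160.3 in the other group. It too did not overlap, at -0.70 ± 0.18 with an adjusted p of 0.0619. Herpud1 read 185, 125 and 137 CPM against 99.0, 85.3 and 116, a log2 fold change of -0.62 ± 0.20 with an adjusted p of 0.0885. Ddit3 was low throughout, at 14.5, 13.4 and 23.0 CPM against 11.3, 9.43 and 11.001, and reached -0.73 ± 0.26 with an adjusted p of 0.109.

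Ern1 stood apart from these in direction: 54.6, 72.2 and 55.6 CPM in WT CAC and 82.7, 97.0 and 74.7 in libraries labelled RNF138-/-. The groups did not overlap by a narrow margin, with a log2 fold change of 0.43 ± 0.17 and an adjusted p of 0.134. Ern2 overlapped widely, at 72.1 ± 22.3 and 73.5 ± 29.6 CPM, and its 95% interval of the log2 difference ran from -0.90 to 0.84. Hspa5 (439.8 ± 31.2 CPM in WT and 408 ± 93.9), Pdia4 (141 ± 22.8 and 153 ± 27.7), Hyou1 (104 ± 29.9 and 131 ± 28.05) and Atf4 (197 ± 46.7 and 178 ± 31.1) overlapped as well. The median of the 10 log2 fold changes was -0.18, beside 0.01 over all genes.

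Markers of the secretory cells moved with genotype in CAC. The summed goblet markers ran from 14274 to 47502 CPM in WT and from 2159.7 to 3521 CPM in libraries labelled RNF138-/-, and 8 of 13 were lower at an adjusted p under 0.05. The summed plasma cell markers ran from 9496 to 14689.7 CPM and from 1078 to 1840.5, with 9 of 13 tested lower. Smooth muscle markers ran from 2954 to 9851 CPM and from 140.6 to 300.5, with 9 of 9 lower, and absorptive colonocyte markers had 4 of 12 lower. None of the markers in these 4 lists was higher. Without CAC library 1 or 2 labelled RNF138-/- no gene of the whole table passed (edgeR), so all these marker calls were lost, although 5048 and 3900 genes still had an unadjusted p under 0.05. Without library 3 so labelled, 4 goblet, 4 plasma cell, 3 smooth muscle and 2 colonocyte markers passed. Without CAC WT library 2 the goblet count was 3, and without WT library 1 it was 5. The sign of each marker that had passed was kept in these fits without a library labelled RNF138-/-. In bulk tissue, fewer cells of a type and less RNA per cell cannot be told apart, and the part of these markers in the values of Creb3l1, Xbp1 and Herpud1 was not tested.

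**Figure D2:**
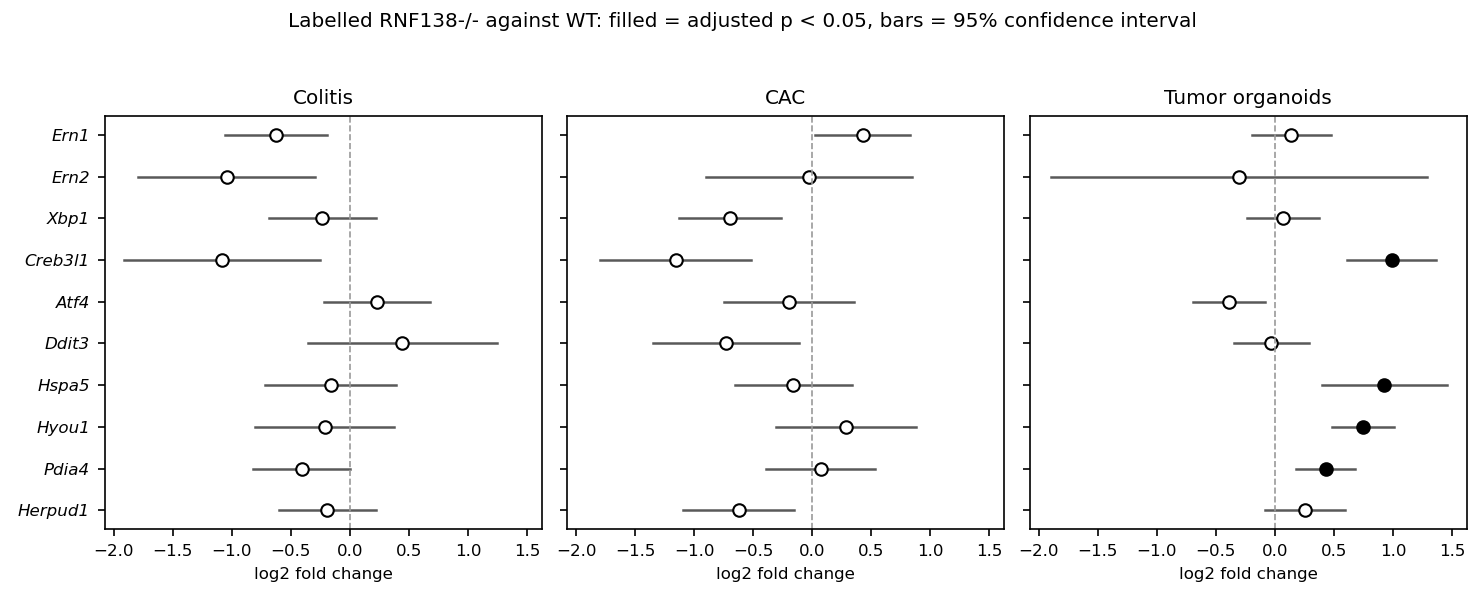
Log2 fold change of each gene in libraries labelled RNF138-/- against WT, with its 95% confidence interval, in colitis, CAC and tumor organoids. Filled points, of which all 4 are in the organoids (Creb3l1, Hspa5, Hyou1 and Pdia4), had an adjusted p under 0.05.

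In the tumor organoids the 3 chaperone genes and Creb3l1 were higher in libraries labelled RNF138-/-. These 4 of 10 genes passed, a share near the background of 35.5% of 15294 genes, and all were in the higher direction, in which 17.9% of genes passed (17.7% passed lower). None reached a 2-fold change, the size the study asks for, where 15.0% of genes did. Libraries of the genotypes did not overlap in 6 of the 10, 5 higher and 1 lower, against 45.4% of all genes.

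Hspa5 read 2175, 1758 and 1231 CPM in WT organoids and 3736, 3517 and 2826 in libraries labelled RNF138-/-. All 3 of the latter were above all WT libraries, although the WT libraries lay far apart among themselves, and the log2 fold change was 0.93 ± 0.23 with an adjusted p of 0.0176. Hyou1 read 331, 288 and 283 CPM against 499.8, 530.2 and 522. Both groups were tight and far apart, at 0.75 ± 0.12 with an adjusted p of 0.00359. Pdia4 read 225, 215 and 192 CPM against 293, 296 and 287, the smallest of the 4 changes at 0.43 ± 0.11 (adjusted p = 0.0185). Creb3l1 read 38.9, 28.1 and 42.6 CPM against 66.5, 72.7 and 83.9. It showed the largest of the 4 changes, 0.99 ± 0.17 with an adjusted p of 0.00436.

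The calls of Creb3l1 and Hyou1 held in all 6 fits that left out 1 library. Hspa5 lost its call without WT library 2 (adjusted p = 0.0503) and without library 1 or 2 labelled RNF138-/- (adjusted p = 0.0623 and 0.0586), and Pdia4 lost its call without any 1 of the 3 libraries labelled RNF138-/- (adjusted p = 0.0654, 0.0671 and 0.0645). Pdia4 also lost it when library totals replaced TMM (0.23, adjusted p = 0.116) and in the fit of all 18 libraries (0.47, adjusted p = 0.0621), where 16.8% of genes passed. With 3 libraries against 3, an exact permutation test of a single gene cannot go below p = 0.1.

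Neither transcription factor of the PERK arm was higher. Atf4 read 806, 809.5 and 657 CPM in WT organoids and 609, 578 and 595 in libraries labelled RNF138-/-. Every WT library was higher, with a log2 fold change of -0.39 ± 0.13 that just missed the threshold (adjusted p = 0.0529), and it passed without WT library 3 (-0.48, adjusted p = 0.0309) and with library totals in place of TMM (-0.59, adjusted p = 0.0081). Ddit3 stood at 36.0 ± 4.48 and 36.2 ± 3.58 CPM, and the 95% interval of its log2 difference ran from -0.35 to 0.29. About 10.9% of its exon bases overlap other annotated entries, so its count is the least certain of the 10 by position.

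Xbp1 stood at 347 ± 46.2 and 374 ± 14.5 CPM, with a 95% interval of the log2 difference from -0.24 to 0.38. Ern1 stood at 35.4 ± 5.53 and 40.0 ± 4.20 CPM. Herpud1 read 223, 226 and 182 CPM against 304, 237 and 232, and did not overlap, yet missed the threshold (0.25 ± 0.15, adjusted p = 0.21). Ern2 was nearly gone from the organoids, at 1.33, 1.36 and 8.84 CPM in WT and 2.46, 3.18 and 3.96 in libraries labelled RNF138-/-. WT library 3 alone set its fitted difference of -0.30 ± 0.69, which became 1.21 (adjusted p = 0.0343) without that library. The median of the 10 log2 fold changes was 0.20, beside -0.04 over all genes.

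Mesenchymal transcripts differed between the organoid groups in the same direction as the chaperones. The 12 fibroblast markers summed to 25299.5, 9897 and 10879 CPM in WT and to 43479.8, 53987 and 49791 in libraries labelled RNF138-/-, and 10 of 12 were higher at an adjusted p under 0.05, against 1172 to 2496 CPM in every colitis and CAC library. Col1a1, a collagen chain, ran from 3255 to 9439.7 CPM in WT and from 13254 to 16054. Of the 10 epithelial markers 6 were lower (1 without library 2 or 3 labelled RNF138-/-, 3 without WT library 2 or 3) and none higher, with sums of 10606 to 11401 CPM in WT and 5853 to 8612. WT library 1, with the most fibroblast marker RNA of its group, was also the highest WT library in Hspa5, Hyou1 and Pdia4, but not in Creb3l1. Among the libraries labelled RNF138-/-, library 1 had the least fibroblast marker RNA and the highest Hspa5. Library 2 so labelled had the most fibroblast marker RNA and the highest Hyou1 and Pdia4, but not the highest Creb3l1. The goblet markers summed to 149.6 to 702 CPM over both groups. The plasma cell markers summed to 1493 to 1817 CPM, nearly all of it from Sdc1 (1399 to 1749 CPM), a syndecan that epithelium also makes. Of the defining plasma cell markers Jchain was at most 0.20, Igkc at most 0.47 and Mzb1 at most 0.16 CPM, and in each genotype 4 of 14 (not the same 4) were at 0 in all 3 libraries, Pou2af1 and Tnfrsf17 in both genotypes. The part of these markers in the members' values was not tested.

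**Figure D3:**
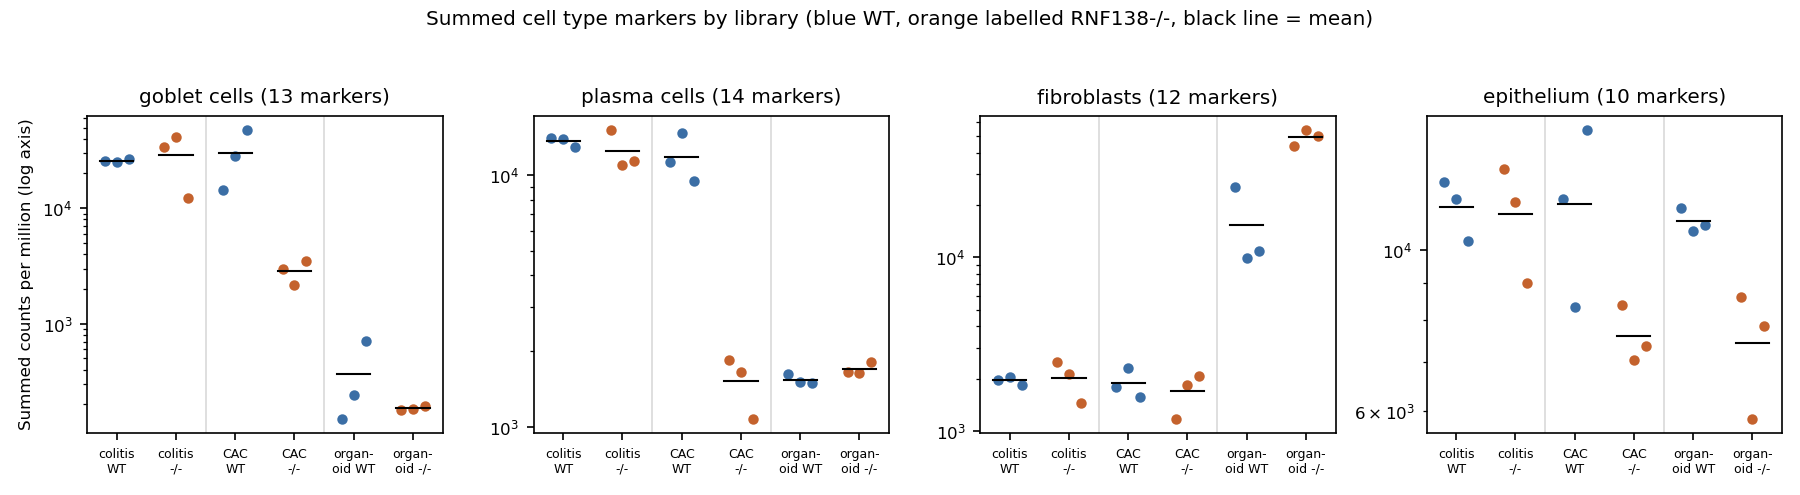
Summed CPM (log axis) of the marker genes of 4 cell types in each of the 18 libraries, 3 points a group and a black line at the mean. Goblet and plasma cell markers were low in CAC libraries labelled RNF138-/- and in organoids, where the plasma cell sum is nearly all Sdc1, and fibroblast markers were highest in the organoids labelled RNF138-/-.

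The models were then compared within each genotype. These contrasts come from 1 fit of 19390 genes in all 18 libraries, and those with CAC share its libraries, so their values stand side by side and are not independent. From colitis to CAC in WT, 2 of 10 genes passed, against 19.8% of all genes, and both were lower, where 7.55% of genes were. Hspa5 fell by 0.98 ± 0.24 on the log2 scale (adjusted p = 0.00964), from 862, 750.3 and 989 CPM to 405, 464 and 451. Creb3l1 fell by 1.75 ± 0.32 (adjusted p = 0.00127). Neither gene's libraries overlapped between these models. Of the markers in this contrast 2 of 13 goblet ones were higher and 1 lower, and 2 of 14 plasma cell ones were higher and none lower. Of 182 further pathway genes, described below, 39 were lower and 2 higher (21.4% and 1.1%). The goblet ER and secretory lineage list among them had 8 of 18 lower and none higher. The part of these genes and markers in the members' values was not tested. Without CAC WT library 2, Xbp1 (-0.59, adjusted p = 0.0362) and Hyou1 (-0.91, adjusted p = 0.0192) passed too.

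In the libraries labelled RNF138-/-, 6 of 10 passed from colitis to CAC, against 54.7% of all genes. One was higher (27.9% of genes were), Ern1 at 0.85 ± 0.17 (adjusted p = 0.000602). The other 5 were lower (26.7% of genes were): Creb3l1 at -1.78 ± 0.32, Ddit3 at -1.45 ± 0.29, Hspa5 at -0.93 ± 0.24, Xbp1 at -0.82 ± 0.17 and Herpud1 at -0.59 ± 0.18. Many markers fell in this contrast as well: 10 of 13 goblet, 11 of 14 plasma cell (2 were higher), 10 of 12 absorptive colonocyte, 9 of 9 smooth muscle and 7 of 12 fibroblast markers (1 was higher) were lower. Epithelial markers were 5 of 10 lower and 1 higher, and myeloid markers went the other way, 5 of 12 higher and 2 lower. The part of all these markers in the members' values was not tested. Herpud1 lost its call without CAC library 2 labelled RNF138-/- (-0.48, adjusted p = 0.065) and with library totals in place of TMM (-0.27, adjusted p = 0.233). Library totals also brought Hspa5 to -0.61 and Xbp1 to -0.50, both still past the threshold, and Pdia4 to a higher call (0.45, adjusted p = 0.0429). The share of members that passed was near that of all genes.

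From CAC tissue to organoids in WT, 9 of 10 passed, against 60.7% of all genes. The WT organoids showed the female pattern and the WT CAC tissue the male pattern, so sex also differs in this contrast. The 6 that were higher (27.0% of genes were) took in the chaperones Hspa5 at 1.97 ± 0.25, Hyou1 at 1.53 ± 0.24 and Pdia4 at 0.58 ± 0.17, the PERK-arm factors Atf4 at 1.94 ± 0.20 and Ddit3 at 1.09 ± 0.29, and Herpud1 at 0.50 ± 0.18. The 3 that were lower (33.7% of genes were) were both IRE1 genes, Ern2 at -4.23 ± 0.60 and Ern1 at -0.78 ± 0.17, and Creb3l1 at -1.31 ± 0.32. Atf4 rose from 184, 158 and 249 CPM to 806, 809.5 and 657, with no overlap. Herpud1 lost its call without CAC WT library 2 or 3 or organoid WT library 1 or 2 (adjusted p = 0.0775 to 0.122), with library totals (0.33, adjusted p = 0.147), without the low-count filter (adjusted p = 0.0802) and with only the 2 groups compared (adjusted p = 0.0923), and it passed in 5 of 12 alternatives. Pdia4 lost its call with library totals (0.40, adjusted p = 0.0702). Xbp1, at 0.39 ± 0.17 (adjusted p = 0.0588), gained one without CAC WT library 2 (adjusted p = 0.0178) or organoid WT library 3 (adjusted p = 0.0342) and with thinned counts (adjusted p = 0.0491).

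In the libraries labelled RNF138-/-, all 10 genes passed from CAC to organoids, against 59.9% of all genes, 8 higher (25.7% of genes were) and 2 lower (34.2% were). Hspa5 rose by 3.04 ± 0.26 on the log2 scale, from 515, 342 and 366 CPM to 3736, 3517 and 2826, the largest rise of any member. Hyou1 rose by 1.98 ± 0.24, Ddit3 by 1.77 ± 0.29, Atf4 by 1.74 ± 0.20, Herpud1 by 1.36 ± 0.19, Xbp1 by 1.15 ± 0.17 and Pdia4 by 0.93 ± 0.17. Creb3l1 was higher here, by 0.82 ± 0.31, while it was lower in WT, where sex also differed. That call (adjusted p = 0.0327) was lost without CAC library 1 or 3 or organoid library 2 or 3 labelled RNF138-/- (adjusted p = 0.0595 to 0.109) and with library totals in place of TMM (0.19, adjusted p = 0.599). Library totals, which moved the median of all genes in this contrast from -0.22 to -0.84, also cost Pdia4 its call (0.31, adjusted p = 0.139). They lowered the rise of Herpud1 to 0.74, of Xbp1 to 0.53, of Atf4 to 1.12 and of Ddit3 to 1.16, and took Ern1 to -1.71, all of which still passed. Ern2 and Ern1 were lower, with log2 fold changes of -4.52 ± 0.61 and -1.08 ± 0.17. In both genotypes Ern2 was lowest in the organoids in every library, as were the goblet marker sums. From CAC to organoids 9 of 12 fibroblast markers were higher in WT and 11 in libraries labelled RNF138-/-, while 13 and 12 of 13 goblet and 11 and 11 of 14 plasma cell markers were lower, and their part in the members' values was not tested.

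**Figure D4:**
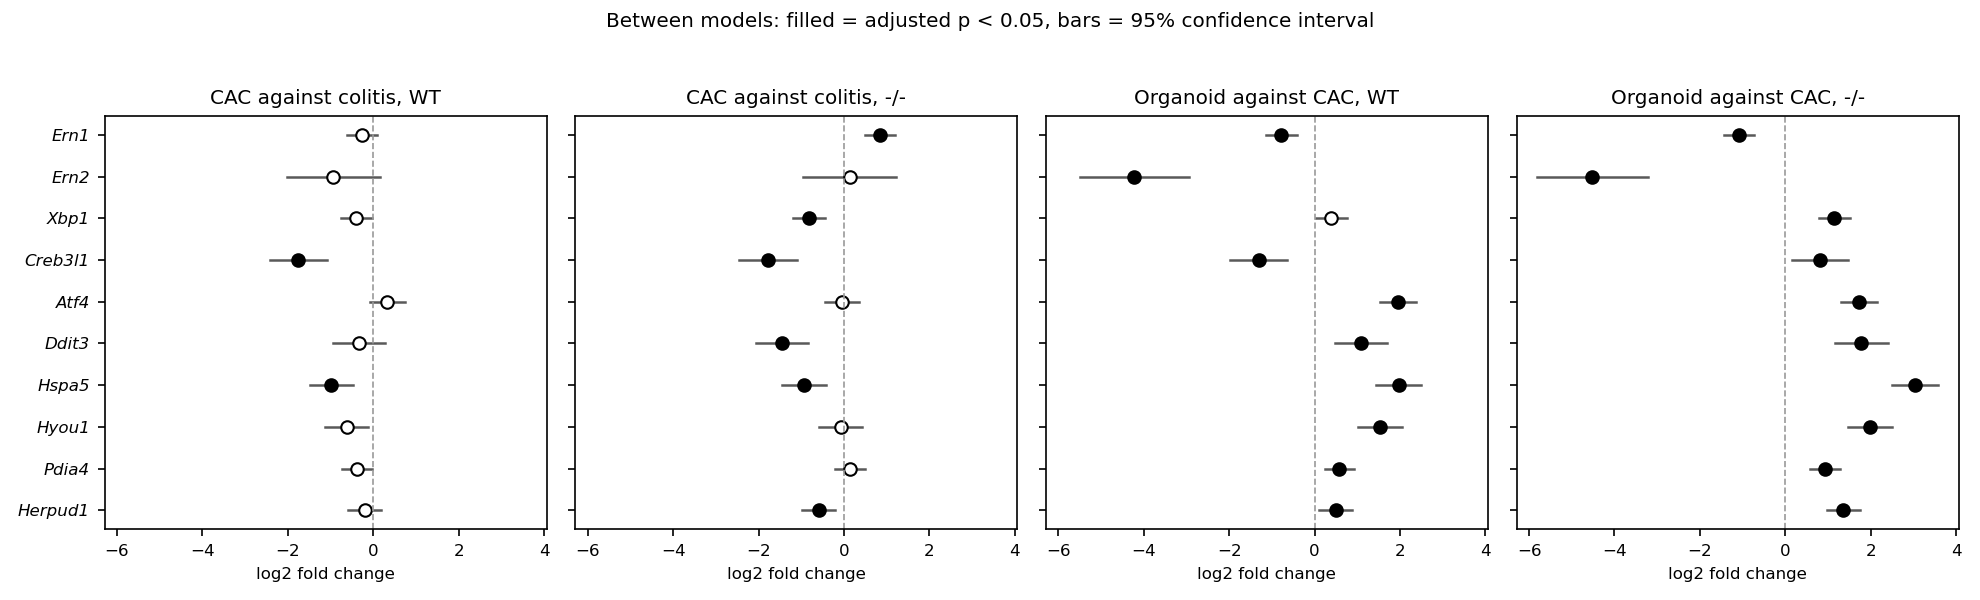
Log2 fold change of each gene between models, in WT and in libraries labelled RNF138-/-, with its 95% confidence interval. Filled points had an adjusted p under 0.05: 2 and 6 of 10 from colitis to CAC, 9 and 10 of 10 from CAC to organoids.

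Whether the genotype difference itself changed between models was tested as an interaction. For CAC against colitis 1 of 10 genes passed (14.1% of all genes did, 4.21% in the higher direction): Ern1, lower in colitis and higher in CAC libraries labelled RNF138-/-, at 1.11 ± 0.24 on the log2 scale (adjusted p = 0.00806). Ddit3, at -1.12 ± 0.41 (adjusted p = 0.0747), passed without colitis library 3 labelled RNF138-/- (-1.44, adjusted p = 0.013) or CAC WT library 2 (-1.31, adjusted p = 0.0409), and with DESeq2 (adjusted p = 0.0406).

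For organoids against CAC 4 of 10 passed, all in the higher direction (23.3% of all genes passed, 13.1% in that direction). Creb3l1 differed most, at 2.13 ± 0.44 (adjusted p = 0.00352), and its call held in each fit without 1 library. Hspa5 (1.07 ± 0.34, adjusted p = 0.0313), Herpud1 (0.87 ± 0.26, adjusted p = 0.0245) and Xbp1 (0.76 ± 0.24, adjusted p = 0.0337) kept the sign but not the call. With library totals they came to 0.63 (adjusted p = 0.122), 0.42 (adjusted p = 0.24) and 0.31 (adjusted p = 0.355), and Atf4 passed in the lower direction (-0.69, adjusted p = 0.0283), beside a move of the median of all genes from -0.04 to -0.49. Xbp1 also missed the threshold without the low-count filter (adjusted p = 0.0863). Each of the 3 missed the threshold without CAC library 2 or organoid library 1 labelled RNF138-/- or without organoid WT library 3, and at least 1 of them also without any 1 CAC WT library, CAC library 3 labelled RNF138-/-, organoid WT library 2, or organoid library 2 or 3 labelled RNF138-/- (adjusted p of at most 0.0785). For organoids against colitis 2 passed, again higher (7.11% of all genes, 4.52% higher): Creb3l1 at 2.10 ± 0.44 (adjusted p = 0.0127) and Pdia4 at 0.87 ± 0.23 (adjusted p = 0.0347). Creb3l1 held in each fit without 1 library, while Pdia4 held only without colitis WT library 2, colitis library 1 labelled RNF138-/- or organoid WT library 1, and reached an adjusted p of at most 0.0897 in the others. It also lost the call with library totals (0.67, adjusted p = 0.12) and without the low-count filter (adjusted p = 0.0693). Hspa5, at 1.12 ± 0.34 (adjusted p = 0.0545), passed without colitis library 2 labelled RNF138-/- (1.27, adjusted p = 0.0487) or organoid WT library 1 (1.34, adjusted p = 0.0254). Ern1, at 0.80 ± 0.24 (adjusted p = 0.0519), passed without colitis library 3 labelled RNF138-/- (0.91, adjusted p = 0.0368), and Ern2 without organoid WT library 3 (2.27, adjusted p = 0.0449). Hyou1 was at 0.99 ± 0.33 (adjusted p = 0.0805). DESeq2 passed Hspa5 (adjusted p = 0.0142), Ern1 (adjusted p = 0.0217) and Hyou1 (adjusted p = 0.0379) as well, and with library totals Atf4 passed lower (-0.78, adjusted p = 0.0469).

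The wider pathway was read from 182 further genes in 7 lists, 181 of them tested between genotypes. In colitis none passed, and in CAC 1 was higher and 15 lower (0.552% and 8.29%, beside 1.05% and 5.33% of all genes). In organoids 67 were higher and 16 lower (37.0% and 8.84%, beside 17.9% and 17.7% of all genes). The CAC calls rest on every library labelled RNF138-/-: without any 1 of the 3, none of the 16 passed, while all 16 kept their sign, and 7 to 12 pathway genes higher and 31 to 48 lower had an unadjusted p under 0.05. Without CAC WT library 1 or 2 there were 7, all lower, and library totals gave 9, all lower. DESeq2 passed 7 higher and 33 lower, and the fit of all 18 libraries 10 and 28. In organoids the counts were 42 and 10 without library 1 labelled RNF138-/-, 36 and 9 without library 2 and 38 and 9 without library 3, and library totals gave 38 higher and 36 lower. All 83 kept their sign in each alternative.

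In organoids the transport list had the largest share of higher genes: 29 of 52 genes of the translocon, COPII coats and ER-to-Golgi traffic were higher (55.8%) and 1 lower, with a median log2 fold change of 0.34. The 12 fibroblast markers moved the same way, 10 higher with a median log2 fold change of 1.51 and the sums given above, and their part in the values of this and the other pathway lists in organoids was not tested. Sec24d, a cargo-binding COPII subunit, went from 108 ± 40.3 to 284 ± 35.3 CPM (1.35 ± 0.24, adjusted p = 0.00517), and Lman1, a cargo receptor between ER and Golgi, from 147 ± 25.6 to 331 ± 27.3 (1.14 ± 0.14, adjusted p = 0.00198). Sec11c, a signal peptidase subunit, was the 1 that fell (-1.09 ± 0.17, adjusted p = 0.00387). Among 26 other chaperones and foldases 11 were higher (42.3%) and 1 lower. Hsp90b1, which encodes GRP94, went from 471 ± 61.4 to 883 ± 60.1 CPM (0.87 ± 0.14, adjusted p = 0.00403), and Dnajc3, a BiP cochaperone, from 168 ± 24.7 to 324 ± 34.5 (0.91 ± 0.14, adjusted p = 0.00338).

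ERAD genes were split, with 5 of 22 higher (22.7%, near the 17.9% of all genes) and 2 lower (9.09%, against 17.7%) and a median of 0.03. Sel1l and Syvn1, partners in the main ERAD ubiquitin ligase complex, were higher by 1.13 ± 0.15 (adjusted p = 0.002) and 0.73 ± 0.15 (adjusted p = 0.00911), and Ubxn8 was lower (-0.86 ± 0.15, adjusted p = 0.00552). Of 9 other sensors and CREB3 or ATF6 family factors 3 were higher and 2 lower, 33.3% and 22.2%. Creb3l2, the nearest relative of Creb3l1, went from 92.2 ± 18.8 to 199 ± 15.4 CPM (1.07 ± 0.15, adjusted p = 0.00278), and Atf6 from 100.2 ± 12.3 to 145 ± 3.79 (0.49 ± 0.11, adjusted p = 0.0114). Creb3l4 (-1.13 ± 0.25, adjusted p = 0.0119) and Eif2ak3, which encodes PERK (-0.35 ± 0.11, adjusted p = 0.0344), were lower, but the Eif2ak3 call held in 4 of 13 alternatives.

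Targets of ATF4 and CHOP went both ways in organoids, 14 of 45 higher (31.1%, beside 17.9% of all genes) and 6 lower (13.3%, beside 17.7%). Pck2, the mitochondrial PEPCK, and Slc7a5, an amino acid transporter, were higher by 1.14 ± 0.15 (adjusted p = 0.00234) and 0.98 ± 0.20 (adjusted p = 0.00812). Chac1, a glutathione-degrading enzyme, fell from 40.1 ± 3.70 to 15.6 ± 3.88 CPM (-1.41 ± 0.19, adjusted p = 0.00248), and Pycr1, of proline synthesis, from 218 ± 51.9 to 84.4 ± 10.0 (-1.41 ± 0.19, adjusted p = 0.00239). The eIF2 kinase and phosphatase genes were 3 of 13 higher and 3 lower (23.1% each), and the goblet ER and secretory lineage genes 3 of 17 higher and 3 lower (17.6% each), shares near those of all genes, with the latter at low levels.

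In CAC the 15 lower genes lay in 5 of the lists. Derl3, an ERAD protein abundant in plasma cells, fell from 17.4 ± 7.48 to 1.65 ± 0.33 CPM (-3.45 ± 0.39, adjusted p = 0.0198), and Edem1, an ERAD mannosidase-like protein, from 168 ± 39.0 to 86.5 ± 6.27 (-1.02 ± 0.21, adjusted p = 0.0432). Among chaperones Pdia5 (-1.20 ± 0.17, adjusted p = 0.0272), Ero1lb and Fkbp2 fell, 3 of 26, and in the transport list the KDEL receptor genes Kdelr1 and Kdelr2 fell, 2 of 52 or 3.85%, less than the 5.33% of all genes that were lower. The Kdelr1 call held in 3 of 13 alternatives, those of Kdelr2 and Fkbp2 in 6, of Edem1, Ero1lb and Slc7a11 in 7, of Klf4 and Cth in 8, of Selenbp1 in 9 and of Derl3 and Pdia5 in 10. The goblet ER and secretory lineage list lost the most, 6 of 18, led by Selenbp1 (-4.36 ± 0.71, adjusted p = 0.0313) and Klf4 (-2.64 ± 0.52, adjusted p = 0.0409). Slc7a11, the cystine transporter, was the 1 gene higher, from 21.2 ± 12.4 to 104 ± 30.5 CPM (2.24 ± 0.49, adjusted p = 0.0487), while Cth, another gene of the ATF4 list, fell. The goblet and plasma cell markers given above moved the same way as the genes that fell, and their part in them was not tested.

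**Figure D5:**
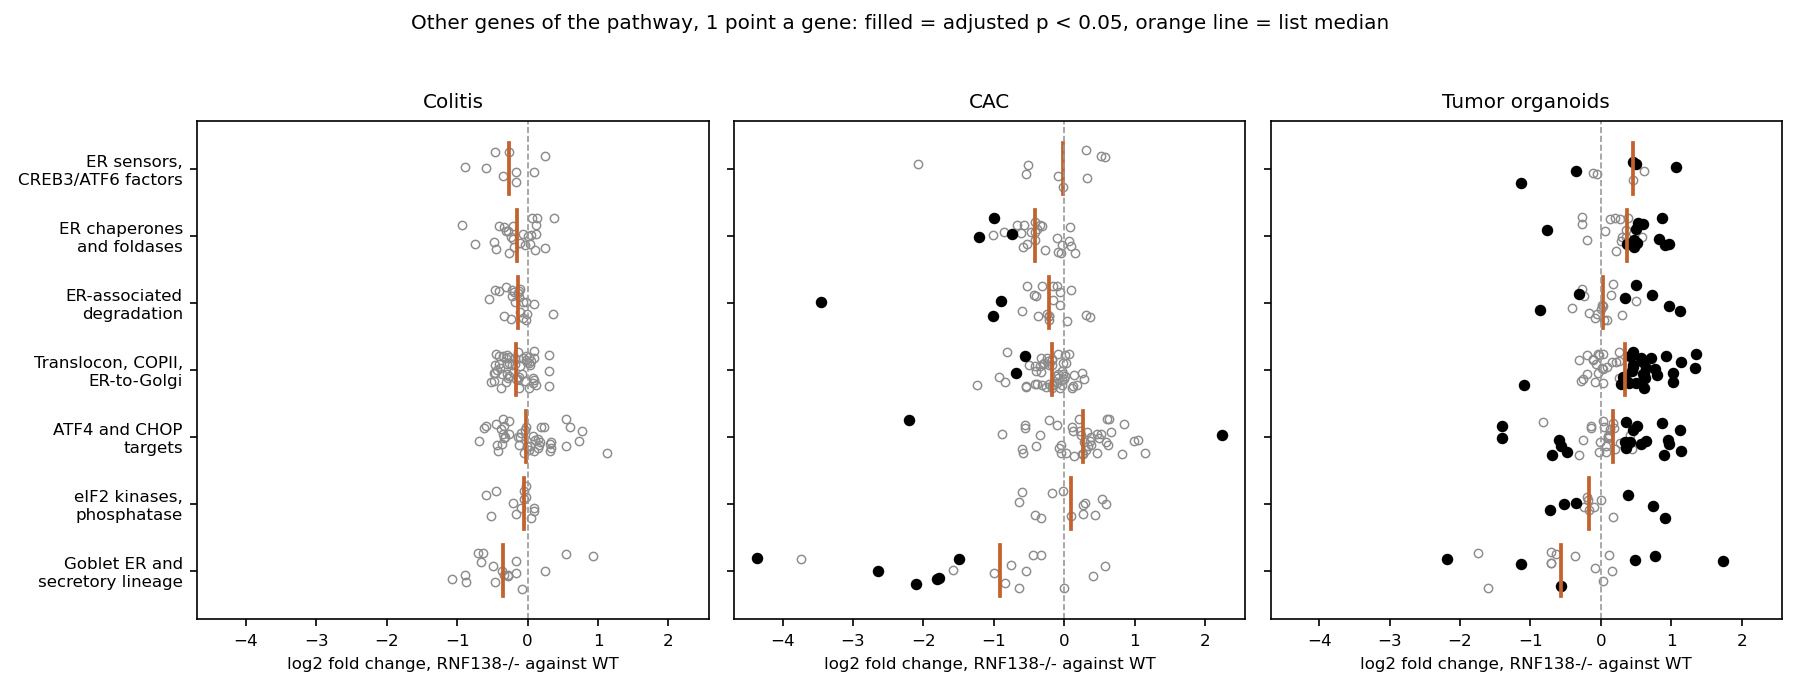
Log2 fold change in libraries labelled RNF138-/- against WT of the other pathway genes, 1 point a gene in 7 lists, with an orange line at each list's median. Filled points had an adjusted p under 0.05: none in colitis, 16 genes in CAC and 83 in the organoids.

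From CAC tissue to organoids, 39 of 45 ATF4 and CHOP targets were higher in WT and 37 in libraries labelled RNF138-/-, against 27.0% and 25.7% of all genes, with median log2 fold changes of 1.41 and 1.25. Chaperones were 14 and 23 of 26 higher, and transport genes 28 and 41 of 52. With library totals in the libraries labelled RNF138-/- these came to 23 ATF4 and CHOP targets, 15 chaperones and 21 transport genes. The goblet ER and secretory lineage genes went the other way, 12 and 9 of 18 lower, against 33.7% and 34.2% of all genes. These counts come from cultured cells against tissue, so culture and cell make-up cannot be told apart. In WT sex cannot be told apart from them either.

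On a per-length scale (mean CPM per kilobase of annotated exon) Hspa5 was the most abundant member in every group, from 96.4 ± 22.2 in CAC libraries labelled RNF138-/- to 794 ± 112 in organoids so labelled. The order below it changed with the model. In WT colitis Creb3l1 (117 ± 15.5) and Xbp1 (108 ± 5.87) came next and did not differ beyond their spread, then Pdia4 (76.7 ± 9.27), Herpud1 (73.6 ± 7.92) and Atf4 (66.4 ± 4.39), which overlapped as well, then Ern2 (46.5 ± 10.3), with Hyou1 (22.1 ± 1.04), Ddit3 (12.4 ± 2.10) and Ern1 (8.90 ± 0.58) last. In WT organoids Atf4 (321 ± 36.8) was next to Hspa5 (407 ± 112), Creb3l1 was down to 14.0 ± 2.90, and Ern2 was last at 1.30 ± 1.46. In colitis the epithelial Ern2 thus stood above Ern1 per kilobase, and in organoids below it.

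Across the 18 libraries Hspa5, Hyou1 and Pdia4 followed each other (Pearson r of 0.95 for Hspa5 with Hyou1, 0.95 for Pdia4 with Hyou1 and 0.89 for Hspa5 with Pdia4, on log2 of CPM + 1), much of it from the gap between organoids and tissue. After the group means were taken out, r was 0.69, 0.76 and 0.61. Atf4 and Ddit3 gave 0.73 and, within groups, 0.77. Ern1 ran against Ddit3 both ways (-0.89 and -0.76), and Hspa5 and Creb3l1 were unrelated over all libraries (-0.07). The genes most like Hspa5 over the 18 libraries, of 19390, were Sar1a (r = 0.98), the COPII GTPase, then Alkbh5, Odc1, Josd1 and Pgrmc2 (0.97 each). For Ern2 they were Tmem186 and Mcf2l (0.98 each), Lgals12, Gm38910 and Bsn (0.97 each), and for Ddit3 Gpi1 (0.98), Bcl7b (0.97), Map1lc3a, Ier5 and Aplp1 (0.96 each). All libraries share the contrast of organoid with tissue, so these values describe likeness of level and carry no test.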

How the data were processed

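RNA was sequenced from 18 mouse libraries in 6 groups of 3. The authors deposited a table of raw read counts per gene for all libraries, with 36757 gene entries, and its values are whole numbers. Per the labels, the submitters' notes list mm10, STAR 2.6.1d, HTSeq 0.11.2 and DESeq2 without a role, the paper's methods name Cufflinks and GENCODE vM8, and 2 sequencers are named in different places. The strand setting of the counting is not given in the sources used here, so overlapping antisense genes cannot be told apart. A second deposited table holds the authors' own fold changes and p-values and was not used.

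Groups came from the sample titles. Counts were filtered by expression, scaled by TMM and tested with edgeR 4.0.16 (R 4.3.3) quasi-likelihood fits, genotypes within each model and models or interactions in 1 fit of all 18 libraries, with Benjamini-Hochberg adjustment over all genes tested and a threshold of 0.05. Levels carry the scaling of all 18 libraries, so a fold change fitted within 1 model can differ slightly from a ratio of mean levels. DESeq2 1.42.0 served as an alternative, and the fits were tested on simulated data. The libraries of a group may not be separate animals, so p-values measure the spread between libraries. Same-numbered colitis libraries correlated in their deviations from the group means at 0.26, 0.11 and 0.53. Differently numbered ones reached 0.28 (WT 1 with library 2 labelled RNF138-/-) and 0.24 (WT 2 with library 1 so labelled). Only the pair numbered 3 stood apart. The fit with the number as a replicate block also passed 0 of the 10 genes in colitis.

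Named pathway genes are at most 3 of each direction per list with the largest change among those that passed. The members and lists were chosen with earlier results of these data known. Alternatives were other scalings, no filter, thinned counts, DESeq2, other sample sets, the replicate block and leaving out each library.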

Additional observations from a re-analysis of the deposited data

Results flagged for a closer look

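A difference between models in the genotype contrast, tested as an interaction with edgeR, passed for 7 gene and model pairs. Between CAC and colitis it was Ern1, at 1.11 on the log2 scale (adjusted p = 0.00806). Between organoids and CAC it was Creb3l1 at 2.13 (adjusted p = 0.00352), Hspa5 at 1.07 (adjusted p = 0.0313), Herpud1 at 0.87 (adjusted p = 0.0245) and Xbp1 at 0.76 (adjusted p = 0.0337). Between organoids and colitis it was Creb3l1 at 2.10 (adjusted p = 0.0127) and Pdia4 at 0.87 (adjusted p = 0.0347). As given above, the Hspa5, Herpud1, Xbp1 and Pdia4 calls were lost with library totals and in some fits without 1 library. The organoid contrasts carry the sex difference between the organoid groups, and those with CAC share its libraries. No group had more than 3 libraries, so no single library was tested as an extreme value.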

How the results depend on the processing

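The count of members that passed in colitis (0), from colitis to CAC in libraries labelled RNF138-/- (6) and from CAC to organoids (9 and 10) stayed within 1.5 times of itself under the other scalings, filters, tools and sample sets and without 1 library. A fold of at least 2 besides the threshold left 1 and 2 members from colitis to CAC (in WT and in libraries labelled RNF138-/-), 6 and 8 from CAC to organoids, and 1, 2 and 1 in the interactions for CAC against colitis, organoids against CAC and organoids against colitis. For genotype in CAC it was 1 (Creb3l1) without the low-count filter, with thinned counts and with the replicate block, 2 with DESeq2 and 4 with all 18 libraries in one fit. For genotype in organoids it was 0 at a fold of at least 2, and 2 to 6 without 1 library, at its lowest without library 1 or 2 labelled RNF138-/-. From colitis to CAC in WT it was 2 to 4 without 1 library. The interaction counts were 2 with DESeq2 and 1 to 2 without 1 library for CAC against colitis, 2 with library totals (Creb3l1 higher and Atf4 lower) and 1 to 4 without 1 library for organoids against CAC, and 1 without the filter, 5 with DESeq2 and 1 to 3 without 1 library for organoids against colitis. The replicate block changed no other call of the 10 members. Of the pathway genes named, Edem1, Fkbp2, Kdelr1 and Cth in CAC and Eif2ak3 in organoids missed the threshold with it. Same-numbered libraries correlated at 0.03, 0.22 and 0.08 in CAC and at -0.21, -0.09 and 0.07 in organoids. With the colitis values given above, the numbers are not shown to be a pairing in any model.

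Library totals without TMM moved the median log2 fold change of all genes from 0.01 to 0.27 in CAC and from -0.04 to -0.24 in organoids, where higher and lower calls went from 2734 and 2702 to 1916 and 4489. Signs that reversed belonged to values that missed the threshold in the fits reported. With library totals they were Hspa5 (0.10), Ern2 (0.24) and Atf4 (0.097) for genotype in CAC, Xbp1 (-0.13) and Ern1 (-0.072) in organoids, Atf4 (0.27) and Hyou1 (0.25) from colitis to CAC in libraries labelled RNF138-/-, and the interactions of Creb3l1 for CAC against colitis (0.23) and Pdia4 for organoids against CAC (-0.088). Ern2 in CAC became 0.016 without the filter and 0.028 in the fit of all libraries, Ern2 in organoids 0.19 with the block, Ddit3 in organoids 0.0093 with thinning, 0.011 with DESeq2 and 0.0086 in the fit of all libraries, and the Hspa5 interaction of CAC against colitis -0.00036 with RLE.

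Without 1 library the sign also turned within these ranges of the log2 fold change: Hspa5 -0.34 to 0.0095 and Hyou1 -0.43 to 0.026 in colitis; Ern2 -0.25 to 0.27, Atf4 -0.34 to 0.033 and Pdia4 -0.051 to 0.23 in CAC; Xbp1 -0.039 to 0.14, Ern2 -0.70 to 1.21 and Ddit3 -0.12 to 0.074 in organoids. From colitis to CAC in libraries labelled RNF138-/- they were Ern2 -0.11 to 0.47, Atf4 -0.26 to 0.093, Pdia4 -0.012 to 0.28 and Hyou1 -0.38 to 0.057. Among interactions they were Hspa5 -0.16 to 0.18 and Creb3l1 -0.35 to 0.42 for CAC against colitis, Ern2 -0.72 to 1.25 for organoids against CAC and Ddit3 -0.74 to 0.011 for organoids against colitis. The cause was not tested. At 17 to 131 reads, Ern2 in the organoids had the least precise level.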
